A study of Mus musculus with 12 samples.

Results

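The Hox cluster genes are the transcription factor genes of the Hoxa, Hoxb, Hoxc and Hoxd clusters. Their expression was described in whole mouse embryos at E12.5 that lacked *Carm1* or carried a null allele of *Pax3*. Members were chosen by name alone, as every symbol made of Hoxa, Hoxb, Hoxc or Hoxd followed by a number, which gave 39 of the 23420 genes listed in the tables of counts. The Hoxa cluster held 11 of them, Hoxb 10, Hoxc 9 and Hoxd 9.

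Hox genes code for homeodomain proteins that give cells their position along the head-to-tail axis. Within a cluster the genes are numbered in the order in which they lie, from paralog group 1, which is expressed early and far forward, in the hindbrain, to group 13, which marks the tail, the distal limb and the genital tubercle. Genes of the same number in different clusters are paralogs with similar sequence and overlapping roles, and Hox proteins bind DNA together with Pbx and Meis partners.

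Embryos of 4 genotype groups were compared, with 3 embryos per group and 1 library per embryo. Embryos of the *Carm1* line came from intercrosses of C57BL/6 mice heterozygous for the null allele *Carm1tm1Mtb*, and the mutants are called *Carm1 KO/KO* here. Embryos of the *Pax3* line came from intercrosses of heterozygotes for *Pax3Sp2h*, the Splotch null allele, on a mixed background kept as a closed colony in another laboratory, and the mutants are called *Pax3 Sp2H/Sp2H*. Both alleles are constitutive, so the mutations were present in every tissue. Each line had its own wild-type embryos, and line, background and laboratory cannot be told apart. RNA was taken from the homogenized embryo, so a value averages the tissues of the embryo, and fewer cells of a type and less RNA per cell cannot be told apart.

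On the mm10 genome the Hoxa members spanned 105.3 kb of chromosome 6 (chr6:52155590-52260880, minus strand). The Hoxb members lay on the plus strand of chromosome 11 over 173.9 kb (chr11:96194316-96368256), the Hoxc members on the plus strand of chromosome 15 over 115.8 kb (chr15:102921103-103036852) and the Hoxd members on the plus strand of chromosome 2 over 96.8 kb (chr2:74668310-74765142). The clusters also hold small RNA genes. miR-10a lies just before *Hoxb4* and miR-10b inside the *Hoxd4* gene, while the miR-196 genes lie near the group 9 and group 10 members. Their mature RNAs are printed because miR-196 is known to pair with *Hoxb8*, the member of the Hoxb cluster that was lower in *Carm1 KO/KO* embryos, and because *Hoxb4* and *Hoxd4*, the neighbours of the miR-10 genes, had the highest fold changes in that line. Sequences are from RefSeq, and capitals mark the seed, bases 2 to 8.
miR-10a-5p: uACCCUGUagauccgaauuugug
miR-10b-5p: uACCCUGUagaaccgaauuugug
miR-196a-5p: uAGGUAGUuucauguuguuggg
miR-196b-5p: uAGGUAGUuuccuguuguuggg
Hoxb8 site of miR-196a: cccaacaacaugaaACUGCCUa

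The 2 miR-10 RNAs share the seed ACCCUGU and the 2 miR-196 RNAs the seed AGGUAGU. In the last sequence, capitals mark the bases of the *Hoxb8* RNA opposite the miR-196 seed. The site lies at chr11:96284888-96284909 on the plus strand, in exon 2 of 2 and 418 bases after the stop codon, in the 3' untranslated region. It pairs with miR-196a at 21 of 22 bases by Watson-Crick rules and at 1 by a G:U pair. Among the longest coding transcripts of 14210 genes tested, it was the only site with at least 19 Watson-Crick pairs, and the next best, in *Ube2w*, had 17. No transcript in that scan reached 19 pairs with miR-10a. The libraries were made from polyadenylated RNA and do not measure mature miRNAs.

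Promoter sequence from RefSeq (GRCm38.p6, the same build as mm10) was at hand for 22 members in 24 windows of 250 bases before the start. Most windows were of Hoxa and Hoxd members, with only *Hoxb1*, *Hoxb4* and *Hoxb8* of Hoxb and *Hoxc4* of Hoxc. *Hoxa10* and *Hoxd11* had more than 1 window. Some windows, such as those of *Hoxa3*, *Hoxa6*, *Hoxa7* and *Hoxd9*, overlap annotated exons of the member itself. Shares over the windows therefore do not describe the 4 clusters evenly. The windows of *Hoxb4* and *Hoxd4*, the members with the highest fold changes in *Carm1 KO/KO* embryos, are printed from 5' to 3', and capitals mark the motifs found. The *Hoxb4* window is chr11:96318017-96318266 and the *Hoxd4* window chr2:74721728-74721977, both on the plus strand. *Hoxd4* is annotated from chr2:74711929, further upstream, so its window lies before an inner start and not before the only start of the gene.
Hoxb4 promoter: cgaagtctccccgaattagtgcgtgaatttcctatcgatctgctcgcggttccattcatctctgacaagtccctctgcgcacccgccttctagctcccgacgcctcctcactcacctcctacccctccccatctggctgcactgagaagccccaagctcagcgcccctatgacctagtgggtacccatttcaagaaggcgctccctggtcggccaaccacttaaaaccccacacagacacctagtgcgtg
Hoxd4 promoter: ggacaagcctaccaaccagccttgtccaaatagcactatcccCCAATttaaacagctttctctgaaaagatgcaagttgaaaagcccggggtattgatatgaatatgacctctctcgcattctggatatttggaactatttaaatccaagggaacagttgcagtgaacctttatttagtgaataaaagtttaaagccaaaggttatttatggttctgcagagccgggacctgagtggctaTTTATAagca

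Both strands of each window were searched for 6 motifs. The CCAAT box was searched as CCAAT and the TATA box as TATAAA. The E-box bound by USF factors was searched as CACGTG. The Meis site was searched as TGACAG. A site of Pbx and Hox proteins together was searched as TGATTNAT. The last was the retinoic acid response element made of a direct repeat with 5 bases between. No motif holds another, and overlapping matches were all counted. The *Hoxd4* window held CCAAT starting 208 bases before the start and TATAAA on the opposite strand 10 bases before it, and the *Hoxb4* window held none of the 6 motifs. Over the 24 Hox windows CCAAT was found in 14, which is 58.3%, against 33.8% of 32817 promoter windows in RefSeq. TATAAA was found in 4 Hox windows (16.7%, against 12.4% of all), CACGTG in 4 (16.7%, against 6.02%), TGACAG in 2 (8.33%, against 15.9%) and TGATTNAT in 2 (8.33%, against 2.83%). The response element was found in 0 of 24, against 0.00914% of all windows. The median GC content was 58.6% in the Hox windows and 52.4% in all windows, and the median ratio of observed to expected CpG was 0.721 and 0.373.

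The 12 libraries held 17183344 to 23518692 counts. Levels are given as CPM, the counts per 1e+06 counts of a library after scaling by TMM, and fold changes as log2 of mutant over wild type. *Carm1*, checked first, had 71.3, 69.3 and 76.2 CPM in *Carm1 KO/KO* embryos, against 151, 145 and 137 CPM in the wild types (log2 fold change -1.0, SE 0.0502), so the gene's RNA was lower in every mutant library. *Pax3* had 22.4, 22.0 and 18.1 CPM in *Pax3 Sp2H/Sp2H* libraries and 30.9, 25.0 and 28.3 CPM in their wild types (log2 fold change -0.43, SE 0.0945, FDR adjusted P = 0.00142). In *Carm1 KO/KO* embryos *Pax3* itself was higher, with 30.4, 29.3 and 27.4 CPM against 20.5, 22.4 and 24.2 CPM in wild types (0.37, SE 0.078, FDR adjusted P = 0.00102). Libraries with at least 100 counts on 4 Y-linked genes were wild-type replicate 3 of the *Carm1* line and, in the *Pax3* line, wild-type replicates 2 and 3 and mutant replicate 3. Nothing in the labels says whether embryos of a group were littermates.

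Hox exons overlap other transcripts, and the strand setting of the counting is not stated. Of the exon bases of *Hoxb3*, 52.9% also belong to the antisense transcript *Hoxb3os*. *Hoxa11* shares 35% of its exon bases with the antisense gene *Hoxa11os*, listed as *Hoxa11as* in the tables. *Hoxd3* and *Hoxd4* share 388 exon bases with each other on the same strand, and the annotated gene Gm28230, also on that strand, covers 53.1% of the exon bases of *Hoxd3* and 39.1% of those of *Hoxd4*. *Hoxc5* and *Hoxc10* share 166 bases, and 16% of the exon bases of *Hoxa4* are shared with the antisense transcript Gm29430. Counts of these members are uncertain, because reads on shared bases cannot be told apart without strand or splicing.

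Levels in wild-type embryos were unequal along each cluster. Levels between genes are compared as CPM per kb of exon. *Hoxb9*, which patterns the thoracic region, had the highest level in both lines, 24.5 ± 0.88 CPM per kb in the *Carm1* line and 31.1 ± 0.0991 in the *Pax3* line (SD, n = 3). *Hoxa5*, needed for lung and cervical patterning, had the highest level in its cluster with 20.9 ± 1.28 and 24.4 ± 0.169 CPM per kb. Its wild-type libraries of the *Carm1* line had 37.1, 39.0 and 41.8 CPM, and those of the *Pax3* line 46.0, 46.0 and 45.4 CPM. *Hoxd13*, a gene of the digits and genital tubercle, led the Hoxd cluster with 16.1 ± 1.19 and 18.3 ± 0.526, from 40.5, 36.8 and 42.7 CPM and from 44.9, 46.9 and 44.5 CPM. In the Hoxc cluster, *Hoxc4* led with 12.3 ± 0.411 and 12.7 ± 0.776, although in the *Pax3* line *Hoxc10* stood within its SD at 12.6 ± 0.101 CPM per kb.

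**Figure D1:**
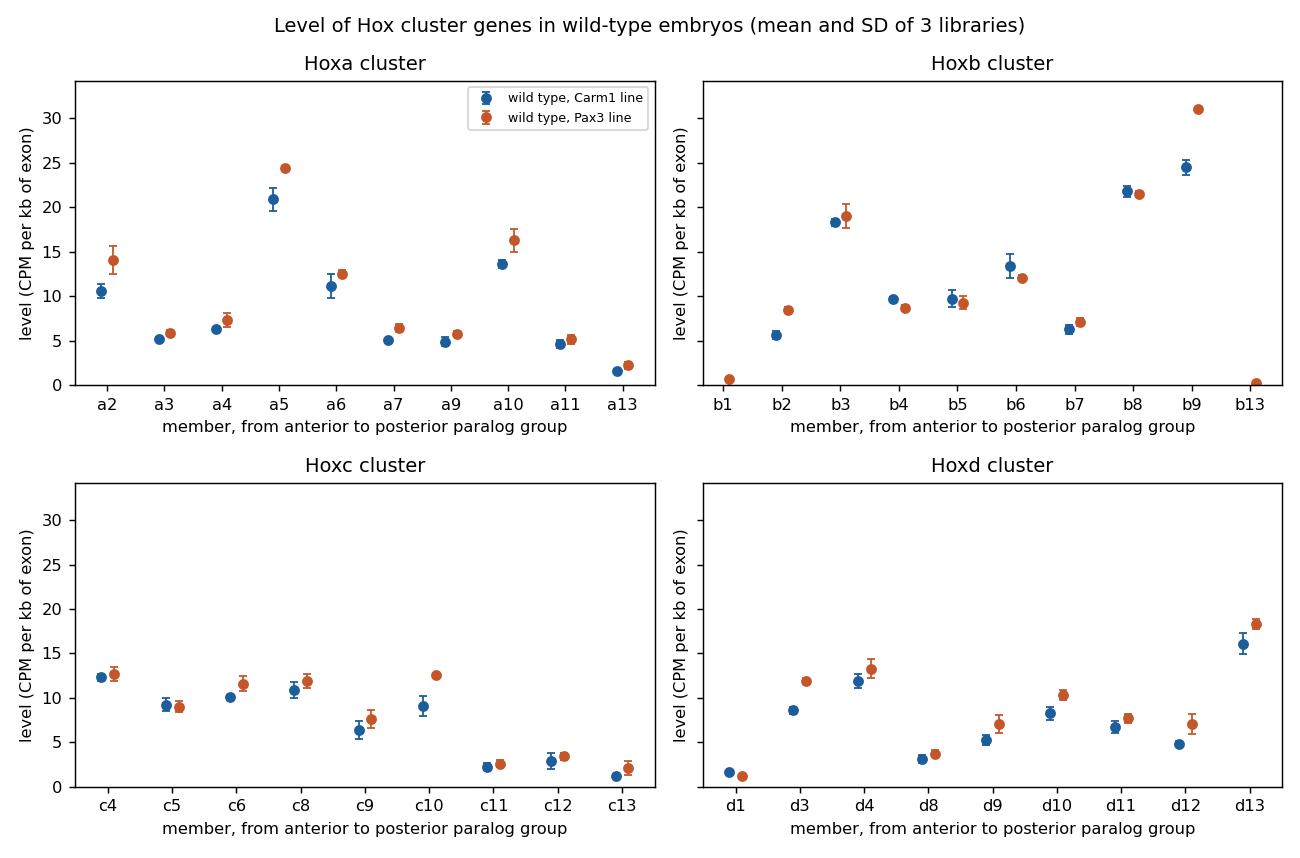
Level of the members in wild-type embryos of the *Carm1* line (blue) and the *Pax3* line (orange), in CPM per kb of exon, by cluster and paralog number. Points are means and bars SDs of 3 libraries. Levels do not fall steadily along a cluster: *Hoxb9*, *Hoxb8*, *Hoxa5*, *Hoxb3* and *Hoxd13* stand highest, and *Hoxb1*, *Hoxd1* and most group 13 members lie near the bottom.

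In the *Carm1* line the order after *Hoxb9* was *Hoxb8* (21.8 ± 0.607 CPM per kb), *Hoxa5* and *Hoxb3* (18.3 ± 0.439), and *Hoxb8* and *Hoxa5* did not differ beyond their SDs. Towards the other end stood *Hoxc13* (1.27 ± 0.0934), *Hoxa13* (1.59 ± 0.175) and *Hoxd1* (1.63 ± 0.0743). In these libraries *Hoxb1* had 6 to 21 counts and *Hoxb13* 0 to 15, and the filter on low counts (edgeR's filterByExpr) removed both, which left 37 members to test. The filter kept all 39 in the *Pax3* line, with *Hoxb1* at 0.679 ± 0.131 and *Hoxb13*, a gene of the tail tip, at 0.257 ± 0.107 CPM per kb. Across the 37 members tested in both lines, wild-type levels per kb had a Spearman correlation of 0.97 between the lines, as a description over genes that share the same exon lengths.

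Hox genes of *Carm1 KO/KO* embryos were shifted upwards by a small amount, and the 3 highest fold changes that passed the test were those of *Hoxd4*, *Hoxb4* and *Hoxa4* of paralog group 4. Of the 37 members tested, 11 passed an FDR adjusted P of 0.05 in edgeR's quasi-likelihood test, 9 higher and 2 lower. Over all 15811 genes tested, 13.3% were called, 5.49% higher and 7.83% lower. Fold changes were above 0 for 31 of the 37 members, against 50.4% of all genes. The median log2 fold change of the members was 0.155 and that of all genes 0.00136. The summed level of the 37 members was 1000, 929 and 964 CPM in *Carm1 KO/KO* embryos and 875, 858 and 868 CPM in wild types, a ratio of means of 1.11, and the groups did not overlap. Single members did not overlap between groups in 14 cases with the mutants higher and 2 with them lower, against 14.2% and 15.7% of all genes. Without mutant replicate 1 the count of called members was 7, with *Hoxb8*, *Hoxb9*, *Hoxc13* and *Hoxd12* no longer called. Over all genes 1224 were then called, against 2106 with every library. In the same embryos 9 of 11 hepatocyte genes tested were lower, with a summed level of 889 to 1080 CPM in mutants and 1610 to 1950 CPM in wild types. Of 11 erythroid genes tested 8 were lower and 1 higher, with *Hba-a1* at 0 in every library. Their summed level overlapped between the groups, at 7620 to 8970 CPM in mutants and 5490 to 9570 CPM in wild types. The part of these cell types in the Hox values was not tested.

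**Figure D2:**
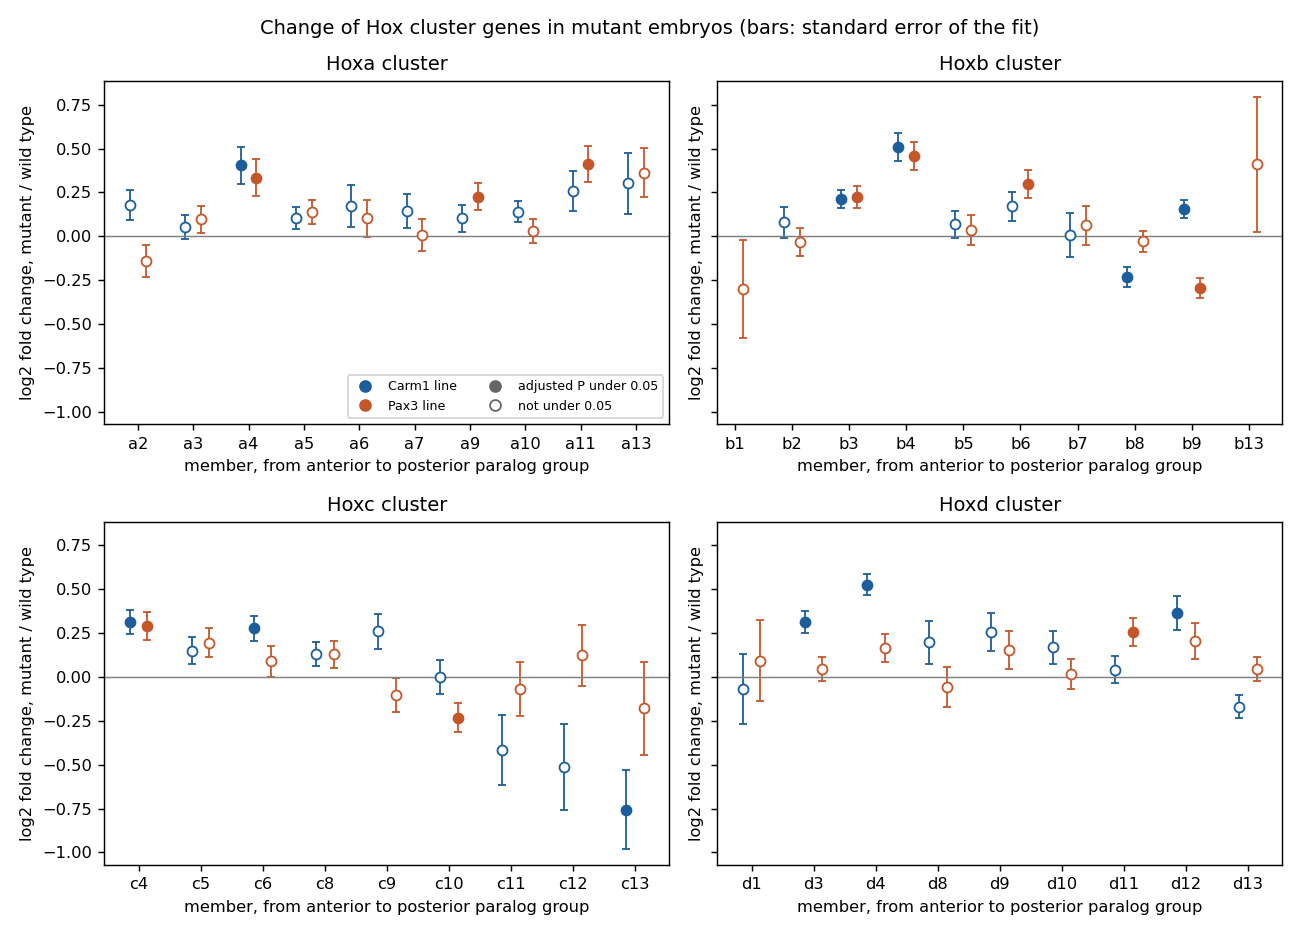
Log2 fold change of mutant over wild type for the members tested, by cluster and paralog number, in the *Carm1* line (blue) and the *Pax3* line (orange). Bars are standard errors and filled points passed an FDR adjusted P of 0.05. Group 4 members lie above 0 in all 4 clusters and both lines, and the Hoxc members of the *Carm1* line run downwards from *Hoxc4* to *Hoxc13*.

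All 4 genes of paralog group 4 were higher in *Carm1 KO/KO* embryos. This group is expressed from the hindbrain and neck backwards and takes part in patterning cervical vertebrae. *Hoxd4* had 50.5, 50.8 and 49.6 CPM in the mutants and 37.5, 33.6 and 33.9 CPM in the wild types. The groups lay well apart, and its log2 fold change of 0.53 (SE 0.0613) was the highest among the members (FDR adjusted P = 1.64e-07). *Hoxb4*, also known for expanding blood stem cells, had 40.3, 31.5 and 33.5 CPM in mutants and 25.3, 23.9 and 25.1 CPM in wild types (log2 fold change 0.51, SE 0.079, FDR adjusted P = 2.69e-05). Mutant replicate 1 was the highest, and all 3 mutants lay above the wild types. *Hoxa4* had 12.8, 13.2 and 14.1 CPM against 9.61, 10.4 and 10.1 CPM (0.40, SE 0.105, FDR adjusted P = 0.00771). *Hoxc4* had 43.1, 36.0 and 38.9 CPM against 30.4, 32.2 and 32.2 CPM (0.31, SE 0.0692, FDR adjusted P = 0.00181). Neither gene's groups overlapped, as for 14.2% of all genes with the mutants higher. The 4 genes summed to 147, 131 and 136 CPM in mutants and 103, 100 and 101 CPM in wild types, 1.37 times as much. Without mutant replicate 3 *Hoxa4* had an FDR adjusted P of 0.0503, and the other 3 genes were called under all 15 alternatives run.

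**Figure D3:**
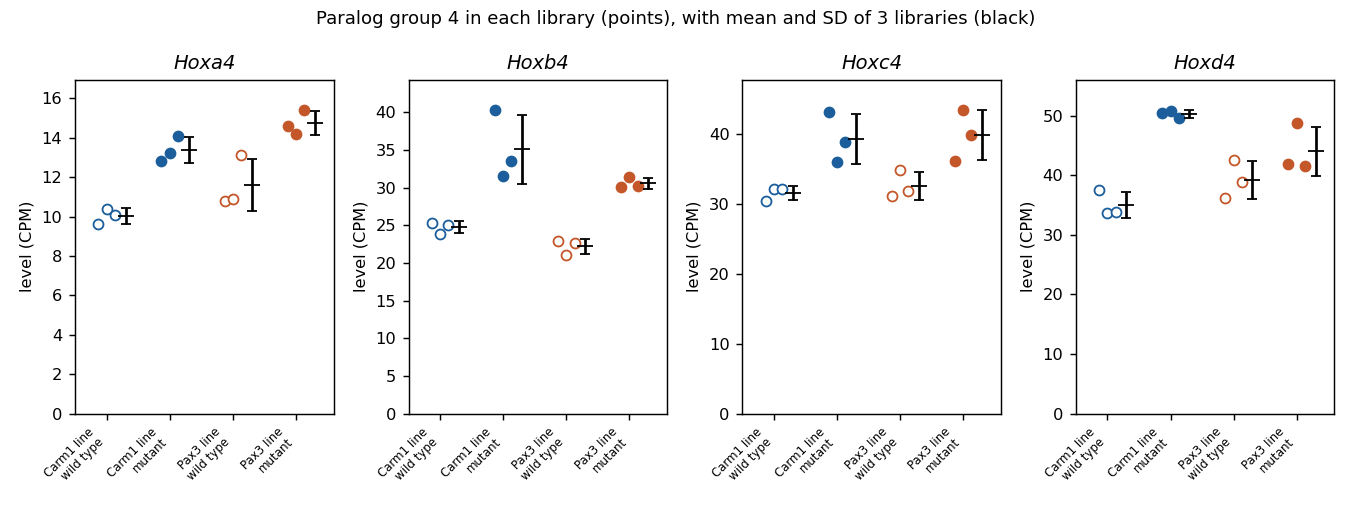
Level of the 4 paralog group 4 genes in each library, in CPM, for wild-type (open) and mutant (filled) embryos of the *Carm1* line (blue) and the *Pax3* line (orange), with mean and SD of 3 libraries in black. In the *Carm1* line the mutants lie above the wild types for all 4 genes, and in the *Pax3* line for *Hoxa4*, *Hoxb4* and *Hoxc4* but not *Hoxd4*.

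Of the 7 anterior members of groups 1 to 3 that were tested in the *Carm1* line, 2 were called. *Hoxd3*, needed for the first neck vertebrae, had 47.2, 45.1 and 42.4 CPM in mutants and 37.5, 34.3 and 36.7 CPM in wild types (log2 fold change 0.31, SE 0.0632, FDR adjusted P = 0.000671). *Hoxb3*, which shares pharyngeal roles with *Hoxa3*, had 92.8, 86.5 and 91.3 CPM in mutants and 79.9, 76.3 and 77.5 CPM in wild types (0.21, SE 0.0492, FDR adjusted P = 0.00295). For both the lowest mutant lay above the highest wild type. *Hoxa3*, the group 3 gene of thymus and parathyroid formation, had 30.8, 33.9 and 33.1 CPM in mutants and 30.7, 32.6 and 30.8 CPM in wild types, and its groups overlapped. *Hoxa2*, which specifies the hyoid arch, *Hoxb2* and *Hoxd1* had log2 fold changes of 0.18, 0.08 and -0.07, none of which passed.

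Among the middle members, of groups 5 to 8, 1 gene was higher and 1 lower. *Hoxc6*, a thoracic gene, had 30.2, 28.3 and 30.4 CPM in *Carm1 KO/KO* embryos and 24.0, 24.5 and 24.8 CPM in wild types (log2 fold change 0.28, SE 0.0721, FDR adjusted P = 0.00804). Its mutant and wild-type libraries were each tightly grouped and did not overlap. *Hoxb8*, a gene of the trunk spinal cord, went the other way, with 45.9, 49.5 and 51.6 CPM in mutants and 57.3, 59.1 and 55.9 CPM in wild types (-0.23, SE 0.0569, FDR adjusted P = 0.00529). Every mutant lay below every wild type, as for 15.7% of all genes. Without mutant replicate 1 its FDR adjusted P was 0.0712, and without wild-type replicate 2 it was 0.0527. *Mir196a-1*, a gene inside the Hoxb cluster that gives the miR-196a printed above, had 23, 45 and 27 counts in mutants. Wild types had 29, 36 and 17 counts, and the groups overlapped. *Mir196a-2* in the Hoxc cluster gives the same mature RNA and had at most 4 counts in a library. *Mir196b*, whose RNA shares the seed, had at most 10. Mature miR-196 was not measured, so its amount is not known. *Hoxa5*, *Hoxb5*, *Hoxc5*, *Hoxa6*, *Hoxb6*, *Hoxa7*, *Hoxb7*, *Hoxc8* and *Hoxd8* did not pass, with log2 fold changes between 0.01 (*Hoxb7*) and 0.20 (*Hoxd8*).

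In groups 9 to 12, 2 further members were higher in the *Carm1* line. *Hoxd12*, a gene of the distal limb, had 17.1, 15.3 and 15.0 CPM in mutants and 12.7, 12.7 and 11.4 CPM in wild types (log2 fold change 0.37, SE 0.0981, FDR adjusted P = 0.0103), with no overlap. *Hoxb9* had 73.7, 68.1 and 69.1 CPM in mutants and 62.7, 65.5 and 61.0 CPM in wild types (0.16, SE 0.0529, FDR adjusted P = 0.0467). Its groups did not overlap either, but the call was lost in 10 of 15 alternatives, with an FDR adjusted P of up to 0.25. Those 10 included leaving out any single library, the term for Y-linked counts (0.125), and DESeq2 (0.112). *Hoxd12* was lost without mutant replicate 1 (FDR adjusted P = 0.0877). *Hoxa9*, *Hoxc9*, *Hoxd9*, *Hoxa10*, *Hoxd10*, *Hoxa11* and *Hoxd11* lay between 0.04 (*Hoxd11*) and 0.26 (*Hoxc9*) on the log2 scale and did not pass. *Hoxc10*, a lumbar gene, had 19, 17.7 and 15.3 CPM in mutants and 19.5, 15.2 and 17.7 CPM in wild types, and the groups overlapped fully.

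Of the 3 Hoxc members of groups 11 to 13, *Hoxc13* was called lower in *Carm1 KO/KO* embryos. This gene of hair and nail formation had 1.87, 1.62 and 2.06 CPM in mutants and 3.38, 3.10 and 2.93 CPM in wild types (log2 fold change -0.76, SE 0.226, FDR adjusted P = 0.0216), the lowest fold change of all members tested. Its groups did not overlap, on 29 to 35 counts per mutant library and 57 to 72 per wild-type library. Leaving out mutant replicate 1 or 2 or wild-type replicate 1 or 2 raised its FDR adjusted P above the threshold, up to 0.0974 without mutant replicate 2, and DESeq2 gave 0.0756. *Hoxc12* had 2.30, 1.68 and 2.18 CPM in mutants and 3.91, 2.06 and 2.97 CPM in wild types (-0.51, SE 0.246, FDR adjusted P = 0.179). *Hoxc11* had 4.55, 2.80 and 2.89 CPM in mutants and 4.45, 3.83 and 5.46 CPM in wild types (-0.41, SE 0.2, FDR adjusted P = 0.179). Groups of both overlapped. Across the 9 Hoxc members the log2 fold change fell with paralog number, with a Spearman correlation of -0.92 in the *Carm1* line, against -0.10 over 11 Hoxa, -0.45 over 8 Hoxb and -0.23 over 9 Hoxd members. The fold changes of the Hoxc members ran downwards in the *Pax3* line too, with a Spearman correlation of -0.70 over the same 9 genes. The other clusters ran upwards in that line, with 0.65 over 11 Hoxa, 0.25 over 10 Hoxb and 0.27 over 9 Hoxd members. These are descriptions over genes that share libraries.

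Between *Hoxc11* and *Hoxc12*, on the opposite strand, lies *Hotair* (chr15:102944062-102947730), a long noncoding RNA. It had 1.70, 0.672 and 0.884 CPM in *Carm1 KO/KO* embryos and 2.19, 2.71 and 3.07 CPM in wild types. All mutants lay below all wild types, with a log2 fold change of -1.29 (SE 0.297, FDR adjusted P = 0.00286), on 12 to 31 counts per mutant and 37 to 63 per wild-type library. Under the 15 alternatives its FDR adjusted P was at most 0.0407. In the *Pax3* line its log2 fold change was -0.17 (SE 0.219, FDR adjusted P = 0.611), and the difference between the lines was -1.11 (FDR adjusted P = 0.0329). That difference did not pass without mutant replicate 2 (0.132) or 3 (0.0891) or wild-type replicate 2 (0.0624) or 3 (0.0795) of the *Carm1* line. It also failed without mutant replicate 2 (0.079) or 3 (0.0664) or wild-type replicate 2 (0.0657) of the *Pax3* line. Of the other group 13 genes, *Hoxa13* stood in the *Carm1* line at 0.30 (SE 0.172, FDR adjusted P = 0.27) and *Hoxd13* at -0.17 (SE 0.0664, FDR adjusted P = 0.0919).

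*Pax3 Sp2H/Sp2H* embryos also had more members higher than lower. Of 39 members tested, 10 were called, 8 higher and 2 lower, against 24.5% of 15724 genes called, 14% higher and 10.5% lower, so the share of members called was close to that of all genes. Fold changes were above 0 for 28 members, with a median log2 fold change of 0.0928 against -0.00255 for all genes, of which 49.6% were above 0. The summed level was 1020, 1080 and 1070 CPM in mutants and 989, 1010 and 983 CPM in wild types, 1.07 times as much. Mutants lay wholly above wild types for 11 members and wholly below for 3, against 20.7% and 18.9% of all genes. The upward shift was not kept when exon length and GC content were fitted as offsets in each library. Then 17 of the 39 members were above 0, the median was -0.0475, and 7 were called, 4 higher and 3 lower. Over all genes 2732 were then called, against 3851 without the offsets. Called members numbered 5 to 12 when single libraries were left out, with 5 without mutant replicate 2, 6 without mutant replicate 1 or 3, and 12 without wild-type replicate 2. Calls over all genes then ranged from 2454 to 4103. Of 11 hepatocyte genes 3 were lower in these mutants, with a summed level of 999 to 1090 CPM against 1200 to 1470 CPM in wild types, and their part in the Hox values was not tested.

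*Hoxb4* had the highest fold change in this line as well. It had 30.1, 31.4 and 30.2 CPM in *Pax3 Sp2H/Sp2H* embryos and 22.9, 21.1 and 22.7 CPM in wild types (log2 fold change 0.46, SE 0.0804, FDR adjusted P = 0.000141). Each group was tight, the mutants all lay above the wild types, and the call was kept in all 15 alternatives, with an FDR adjusted P of 0.00481 with the offsets. *Hoxa4* had 14.6, 14.2 and 15.4 CPM against 10.8, 10.9 and 13.1 CPM (0.33, SE 0.104, FDR adjusted P = 0.0189), and with the offsets its log2 fold change was 0.05 (FDR adjusted P = 0.807). It was also lost without wild-type replicate 1 (0.079), mutant replicate 1 (0.0542) or mutant replicate 3 (0.093). *Hoxc4* had 36.2, 43.4 and 39.9 CPM against 31.1, 34.9 and 31.9 CPM (0.29, SE 0.0818, FDR adjusted P = 0.0106), without overlap. With the offsets it had an FDR adjusted P of 0.101, and without mutant replicate 2 of 0.08. *Hoxd4* had 41.8, 48.7 and 41.5 CPM in mutants and 36.2, 42.6 and 38.9 CPM in wild types, and its groups overlapped (0.17, SE 0.0812, FDR adjusted P = 0.136). Together the group 4 genes summed to 123, 138 and 127 CPM in mutants and 101, 110 and 107 CPM in wild types, 1.22 times as much.

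Of the remaining anterior and middle members, 2 were higher in the *Pax3* line. *Hoxb3* had 87.0, 97.8 and 98.6 CPM in mutants and 81.7, 74.7 and 85.8 CPM in wild types (log2 fold change 0.23, SE 0.0627, FDR adjusted P = 0.00978). The lowest mutant lay just above the highest wild type, and the FDR adjusted P was 0.0527 without mutant replicate 2 and 0.0874 without mutant replicate 3. *Hoxb6*, a thoracic gene, had 28.1, 29.7 and 30.0 CPM in mutants and 23.7, 24.5 and 23.3 CPM in wild types (0.30, SE 0.0798, FDR adjusted P = 0.00776). Its groups were well apart, yet with the offsets its log2 fold change was 0.10 (FDR adjusted P = 0.375). *Hoxa2*, *Hoxb1* and *Hoxb2*, genes of groups 1 and 2 with hindbrain roles, were at -0.14, -0.30 and -0.03, and *Hoxd1* was at 0.09, none of which passed. *Hoxb1* had the lowest fold change of the 39 members, with 1.07, 1.55 and 1.19 CPM in mutants and 1.32, 1.91 and 1.5 CPM in wild types, on 24 to 35 counts per library, and its groups overlapped. *Hoxa3*, *Hoxd3*, *Hoxa5*, *Hoxb5*, *Hoxc5*, *Hoxa6*, *Hoxc6*, *Hoxa7*, *Hoxb7*, *Hoxb8*, *Hoxc8* and *Hoxd8* lay between -0.06 (*Hoxd8*) and 0.20 (*Hoxc5*) and did not pass.

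Of the members of groups 9 to 13, *Hoxa9*, *Hoxa11* and *Hoxd11* were higher in *Pax3 Sp2H/Sp2H* embryos. *Hoxa11*, which with *Hoxd11* builds the forearm and the kidney, had 15.6, 16.2 and 15.1 CPM in mutants and 12.5, 12.5 and 10.4 CPM in wild types (log2 fold change 0.41, SE 0.102, FDR adjusted P = 0.00396). *Hoxa11as*, its antisense gene, had 32.2, 35.8 and 36.4 CPM in mutants and 25.3, 26.1 and 23.6 CPM in wild types (0.48, SE 0.0824, FDR adjusted P = 0.000112), and the counts of the pair share exon bases. *Hoxd11* had 38.5, 39.9 and 37.7 CPM against 31.5, 35 and 30.8 CPM (0.26, SE 0.078, FDR adjusted P = 0.0173). *Hoxa9* had 36.2, 40.1 and 37.2 CPM against 30.6, 34.1 and 32.3 CPM (0.23, SE 0.0785, FDR adjusted P = 0.0358). For all 4 of these genes the mutants lay above the wild types, as for 20.7% of all genes. Genes of the mesonephros and metanephros, where *Hoxa11* and *Hoxd11* are expressed, summed to 359 to 370 CPM in these mutants. Their sum in wild types was 311 to 336 CPM. Limb bud genes summed to 651 to 660 CPM in mutants and 648 to 660 CPM in wild types, and those groups overlapped. The part of either tissue in the Hox values was not tested. With the offsets *Hoxa11* stood at 0.28 (FDR adjusted P = 0.0525). *Hoxd11* was lost without wild-type replicate 3 (0.0683), mutant replicate 1 (0.0503) or mutant replicate 2 (0.067). *Hoxa9* was lost without wild-type replicate 1 or 3 or any mutant replicate, with an FDR adjusted P of up to 0.15.

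The 2 members that were lower in the *Pax3* line were *Hoxb9* and *Hoxc10*. *Hoxb9* had 67.7, 61.6 and 66.4 CPM in *Pax3 Sp2H/Sp2H* embryos and 79.9, 80.4 and 80.1 CPM in wild types (log2 fold change -0.30, SE 0.0579, FDR adjusted P = 0.000458). The 3 wild types lay within 1 CPM of each other and far above the mutants, and the call was kept in all 15 alternatives. *Hoxc10* had 20, 20.2 and 21.3 CPM against 24.0, 23.9 and 24.3 CPM (-0.23, SE 0.0817, FDR adjusted P = 0.039). Its groups did not overlap, as for 18.9% of all genes with the mutants lower, but its call was lost in 9 of 15 alternatives. These were DESeq2 (0.0633), no filter on low counts (0.068), the term for Y-linked counts (0.0634) and leaving out any single library, with an FDR adjusted P of up to 0.133. *Hoxc9*, *Hoxd9*, *Hoxa10*, *Hoxd10*, *Hoxc11*, *Hoxc12*, *Hoxd12*, *Hoxa13*, *Hoxb13*, *Hoxc13* and *Hoxd13* did not pass, with log2 fold changes from -0.18 (*Hoxc13*) to 0.41 (*Hoxb13*, on 6 to 21 counts per library). *Hoxc13*, lower in the *Carm1* line, had 3.53, 4.51 and 5.26 CPM in *Pax3 Sp2H/Sp2H* embryos and 6.10, 6.31 and 2.92 CPM in wild types, with wild-type replicate 3 below all mutants.

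**Figure D4:**
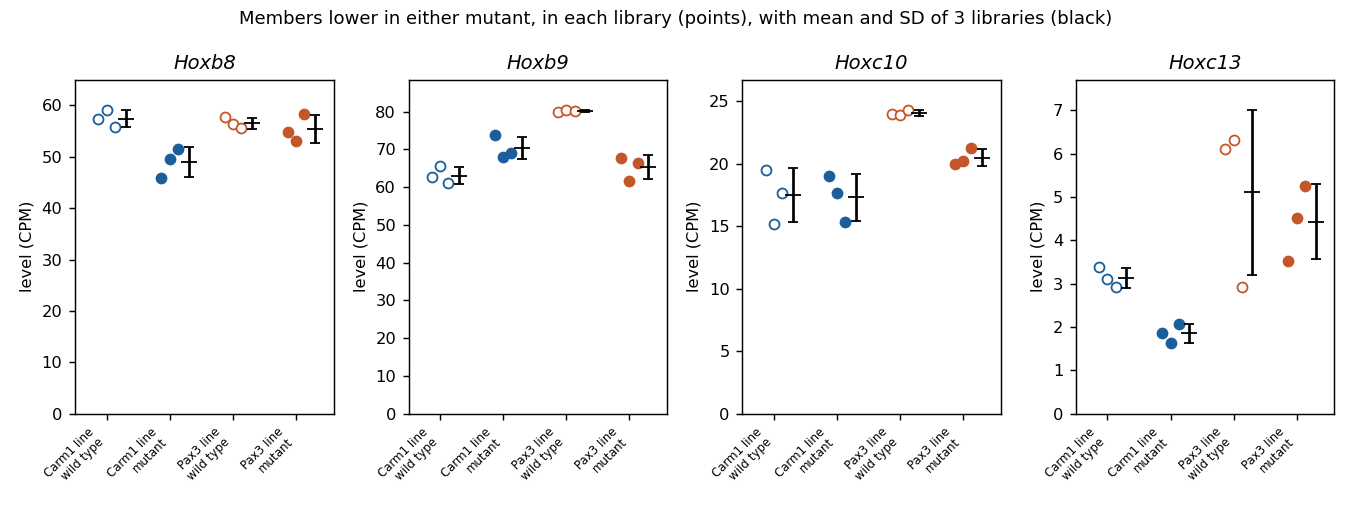
Level in CPM of the 4 members that were lower in either mutant, in each library of the *Carm1* line (blue) and the *Pax3* line (orange), wild types open and mutants filled, with mean and SD of 3 libraries in black. *Hoxb9* is lower in *Pax3* mutants and higher in *Carm1* mutants than in their own wild types, whose levels differ between the lines.

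*Carm1 KO/KO* and *Pax3 Sp2H/Sp2H* embryos shared 4 members called higher, *Hoxa4*, *Hoxb3*, *Hoxb4* and *Hoxc4*, of 37 tested in both lines. Over all 15461 genes tested in both lines, 1.12% were called higher in both. With the length and GC offsets *Hoxa4* (FDR adjusted P = 0.807) and *Hoxc4* (0.101) were not called in the *Pax3* line, which left *Hoxb3* and *Hoxb4* of these as called higher in both. Without the offsets, the 4 are a share of 4 of the 9 members higher in the *Carm1* line and 4 of the 8 higher in the *Pax3* line. The lines have separate wild-type embryos. The changes of the 4 genes differed between the lines by 0.08 (SE 0.143) for *Hoxa4*, -0.00149 (SE 0.0813) for *Hoxb3*, 0.06 (SE 0.116) for *Hoxb4* and 0.04 (SE 0.107) for *Hoxc4* on the log2 scale, none past the threshold. *Hoxb9* was called in opposite directions, as were 1.4% of all genes. Its call in the *Carm1* line was lost in 10 of 15 alternatives, and its call in the *Pax3* line in none. Signs matched for 27 of the 37 members, and the Pearson correlation of the log2 fold changes was 0.37 over the members and 0.11 over all 15461 genes, as descriptions.

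**Figure D5:**
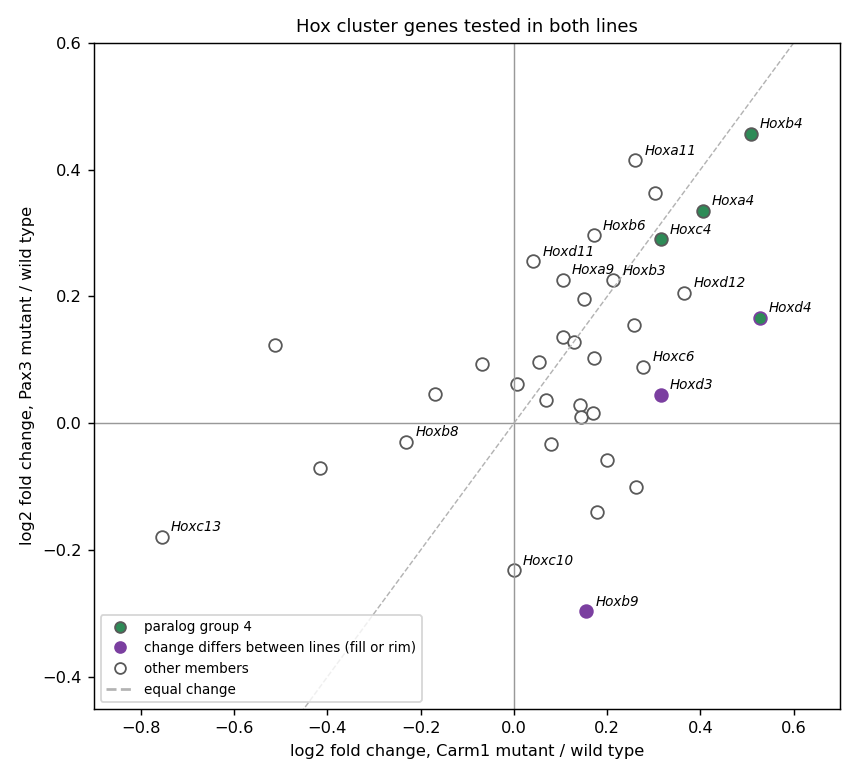
Log2 fold change of members tested in both lines, *Carm1 KO/KO* on the horizontal and *Pax3 Sp2H/Sp2H* on the vertical axis, with the line of equal change dashed. Paralog group 4 is green, and a purple fill or rim marks the members whose change differed between the lines. *Hoxa4*, *Hoxb4* and *Hoxc4* lie near the dashed line, *Hoxd4* and *Hoxd3* to the right of it and *Hoxb9* at the lower right.

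The change differed between the lines for 3 of 39 members in the interaction test, where 19.1% of 16292 genes passed. *Hoxb9* changed by 0.46 more in the *Carm1* line (SE 0.0777, FDR adjusted P = 6.62e-05), rising in that line and falling in the other. Its wild-type level was 61.0 to 65.5 CPM in the *Carm1* line and 79.9 to 80.4 CPM in the *Pax3* line, and its mutant levels were 68.1 to 73.7 and 61.6 to 67.7 CPM. *Hoxd4* changed by 0.37 more in the *Carm1* line (SE 0.0979, FDR adjusted P = 0.00717), and its neighbour *Hoxd3* by 0.28 more (SE 0.0902, FDR adjusted P = 0.0265). *Hoxd3* had 46.7, 53.9 and 53.1 CPM in *Pax3 Sp2H/Sp2H* embryos and 51.0, 49.7 and 48.4 CPM in their wild types, with overlap. *Hoxb9* and *Hoxd4* passed in all 20 alternatives, *Hoxd3* in 15, with FDR adjusted P of 0.0871 without mutant replicate 1 of the *Carm1* line, 0.0626 without its mutant replicate 2 and 0.0944 without its wild-type replicate 2. In the *Pax3* line leaving out wild-type replicate 1 (0.0571) or mutant replicate 1 (0.112) also ended the call. *Hoxa2* differed by 0.33 (SE 0.129, FDR adjusted P = 0.0694), short of the threshold. With the length and GC offsets 9 members passed, among them *Hoxa2*, *Hoxa6*, *Hoxb1*, *Hoxc9* and *Hoxc10* beside *Hoxb9*, *Hoxd4* and *Hoxd3*. Over all genes 2916 then passed, against 3115 without the offsets.

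Genes that act with or upstream of the clusters were read from lists, whose counts stand against 13.3% of all genes called in the *Carm1* line and 24.5% in the *Pax3* line. Hox proteins bind DNA with Pbx, Meis and Pknox partners, and of these 9 genes 2 were higher in *Carm1 KO/KO* embryos, *Pbx2* (log2 fold change 0.18, FDR adjusted P = 0.00352) and *Meis2* (0.15, FDR adjusted P = 0.0169). In *Pax3 Sp2H/Sp2H* embryos 2 were higher and 2 lower, led by *Meis2* (-0.21, FDR adjusted P = 0.00608), *Pknox2* (-0.23, FDR adjusted P = 0.0208) and *Pbx2* (0.18, FDR adjusted P = 0.0226). *Evx1* and *Evx2*, homeobox genes just beyond the posterior ends of the Hoxa and Hoxd clusters, belong to a list of 14 regulators of axial extension. In the *Carm1* line 3 of 12 tested were higher, *Evx1* (0.83, FDR adjusted P = 0.00125), *Nr6a1* (0.52, FDR adjusted P = 0.00183) and *Lin28a* (0.59, FDR adjusted P = 0.0214), and *Cdx4* had no count. Of 11 tested in the *Pax3* line 5 were higher, led by *Evx2* (0.59, FDR adjusted P = 0.00757), *Gbx2* (0.35, FDR adjusted P = 0.00913) and *Evx1* (0.47, FDR adjusted P = 0.013). *Evx2* had 4.06, 3.36 and 3.95 CPM in *Carm1 KO/KO* embryos and 2.91, 2.28 and 2.49 CPM in wild types, where it did not pass (0.58, FDR adjusted P = 0.0518).

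Retinoic acid sets the anterior limits of early Hox genes. Of 18 genes of its synthesis and response, 3 were higher in the *Carm1* line, *Crabp2* (log2 fold change 0.28, FDR adjusted P = 0.000191), *Crabp1* (0.28, FDR adjusted P = 0.000264) and *Stra6* (0.23, FDR adjusted P = 0.0141). The *Pax3* line had 5 higher, led by *Rxrb* (0.46, FDR adjusted P = 1.43e-05), *Crabp2* (0.32, FDR adjusted P = 0.000209) and *Crabp1* (0.25, FDR adjusted P = 0.00139). The median log2 fold change of the 18 genes was 0.00927 and 0.126. Polycomb proteins keep Hox clusters silent where they are not expressed. Of 27 Polycomb genes tested in the *Carm1* line, 4 rose and 2 fell, with *Cbx6* lower (-0.32, FDR adjusted P = 5.68e-06), *Ring1* higher (0.30, FDR adjusted P = 0.000838) and *Bmi1* lower (-0.19, FDR adjusted P = 0.0115). In *Pax3 Sp2H/Sp2H* embryos 6 were higher and 2 lower, led by *Ring1* (0.67, FDR adjusted P = 2.39e-06), *Cbx6* (0.29, FDR adjusted P = 0.000934) and *Phf1* (0.34, FDR adjusted P = 0.00328), all higher. The share of Polycomb genes called in this line was near the 24.5% of all genes. Of 16 genes of the Trithorax group, its partners and H3K27 demethylases, which act on active Hox genes, 2 were higher in the *Carm1* line, *Dpy30* (0.24, FDR adjusted P = 0.0116) and *Brpf1* (0.17, FDR adjusted P = 0.018). The *Pax3* line had 2 higher and 4 lower, led by *Ash1l* (-0.22, FDR adjusted P = 0.00277), *Kat6a* (-0.22, FDR adjusted P = 0.00335) and *Dpy30* (0.27, FDR adjusted P = 0.0107).

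Noncoding genes of the clusters formed a list of their own. Of the antisense and miRNA genes on it, 13 were named in the tables, and 8 could be tested in the *Carm1* line. *Hotair* was lower, and *5730457N03Rik*, antisense to *Evx1* beyond the Hoxa cluster, was higher (log2 fold change 1.01, FDR adjusted P = 4.83e-05), with 6.68 ± 0.529 CPM in mutants and 3.33 ± 0.461 CPM in wild types (SD, n = 3). Of 7 tested in the *Pax3* line, *Hoxa11as* was higher. *Mir10a* (chr11:96317165-96317274), which lies before *Hoxb4* at chr11:96318267-96321638, had 22, 26 and 20 counts in *Carm1 KO/KO* libraries and 11, 17 and 10 in wild types (1.03, SE 0.357, FDR adjusted P = 0.0525). In the *Pax3* line it had 5, 19 and 2 counts in mutants and 14, 10 and 14 in wild types, and the groups overlapped. *Mir10b* had at most 4 counts in a library.

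Markers of tissues that express different stretches of the clusters were set beside these values. Over all genes tested, 13.3% were called in the *Carm1* line and 24.5% in the *Pax3* line. Forebrain and midbrain, which largely lack Hox expression, had 15 genes tested, of which 2 rose and 2 fell in the *Carm1* line (summed level 341 to 365 CPM in mutants and 358 to 385 CPM in wild types). Among these were *Tcf7l2* (log2 fold change -0.20, FDR adjusted P = 0.00661) and *Otx1* (0.28, FDR adjusted P = 0.0381). Of 15 spinal cord and hindbrain genes 3 were higher in the *Carm1* line, *Dbx1* (0.50, FDR adjusted P = 0.000226), *Atoh1* (1.22, FDR adjusted P = 0.0131) and *Lhx3* (0.67, FDR adjusted P = 0.0171), with a sum of 118 to 125 CPM in mutants and 107 to 111 CPM in wild types. In the *Pax3* line 3 of these 15 were higher, *En2* (0.67, FDR adjusted P = 3.82e-05), *Nkx6-1* (0.37, FDR adjusted P = 0.00615) and *Lhx3* (0.52, FDR adjusted P = 0.0219), with a sum of 136 to 150 CPM against 123 to 134 CPM. The forebrain and midbrain genes summed to 395 to 437 CPM in *Pax3 Sp2H/Sp2H* embryos and 381 to 416 CPM in wild types. The summed level of spinal cord and hindbrain genes was higher in every mutant library than in the wild types of its line, as was that of the Hox genes. That sum includes *En2*, at 24.0 ± 3.81 CPM in *Pax3 Sp2H/Sp2H* embryos and 15.0 ± 1.41 CPM in wild types (SD, n = 3). *En1* was counted with the forebrain and midbrain genes, so the lists do not split cleanly by Hox expression. The part of these tissues in the Hox values was not tested.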

How the data were processed

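RNA-seq libraries from polyadenylated RNA of 12 whole embryos at E12.5 were sequenced in pairs. The deposited counts are whole numbers of reads per gene, which the authors made by aligning reads to mm10 with STAR and counting exon reads with featureCounts. Versions, gene annotation, strand setting and the treatment of reads with several matches are not given in the sources used here. Groups were taken from the GEO labels, and the 12 libraries held 17183344 to 23518692 counts.

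Each line was tested on its own with edgeR 4.0.16 (R 4.3.3, limma 3.58.1) on the counts as deposited. Genes were kept by filterByExpr, libraries scaled by TMM, and mutants compared with wild types by the robust quasi-likelihood test, with Benjamini-Hochberg adjustment over all genes tested and a threshold of 0.05. The difference between the lines was the interaction of line and genotype over 12 libraries. Each library is a separate embryo, so p-values measure the spread between embryos. With 3 against 3, an exact permutation test of a single value cannot go below 0.10. The test scripts were checked on simulated counts.

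Every Hox member entered the fits, counts, sums and medians, and the single values of 1 member and of 1 marker gene are not reported here. Library values were given for members called in either line or in the interaction, for the highest and lowest fold change of each line and for the member with the highest wild-type level per kb in each cluster, and up to 3 called genes of each list were named. Values for *Mir10a*, *Mir10b*, *Mir196a-1*, *Mir196a-2*, *Mir196b*, *Evx2*, *Pax3* in the *Carm1* line and some members that did not pass were added after they had been seen. Although membership followed the symbols alone, the members and lists were chosen with earlier results of these data known. Exon lengths, GC content and positions came from a GENCODE annotation of the same build. Of 23420 symbols, 21777 matched it as written and 1278 by an older symbol.

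Alternatives were RLE and upper-quartile normalization, DESeq2 1.42.0, no filter and a minimum of 10 counts in every library, 1 fit of 12 libraries, replicate number as a block, a term for Y-linked counts, offsets for exon length and GC content, and leaving out each library.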

Additional observations from a re-analysis of the deposited data

Results flagged for a closer look

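For 3 of 39 Hox members the change from wild type to mutant differed between the *Carm1* line and the *Pax3* line in the interaction test of edgeR. Of all 16292 genes 19.1% passed that test, a larger share than among the members. The difference in log2 fold change, *Carm1* line minus *Pax3* line, was 0.46 for *Hoxb9*, 0.37 for *Hoxd4* and 0.28 for *Hoxd3*. *Hoxd3* was lost in 5 of 20 alternatives, and *Hoxd3* and *Hoxd4* share exon bases. Groups of 3 libraries were too small to look for a single library far from the others. The lines differ in background and laboratory as well as in the mutated gene, and these cannot be told apart.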

How the results depend on the processing

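No fold change of a called member turned its direction under any alternative. Leaving out single libraries gave 7 to 11 called members in the *Carm1* line, 5 to 12 in the *Pax3* line and 2 to 5 for the difference between the lines. Calls over all genes moved as well, ranging from 1224 to 2290, from 2454 to 4103 and from 2311 to 3390 in the same order. The medians of the members then ranged from 0.121 to 0.178 in the *Carm1* line and from 0.0622 to 0.111 in the *Pax3* line. Offsets for exon length and GC content gave 9 members for the difference between the lines, where 2916 of all genes passed. They gave a median of -0.0475 in the *Pax3* line, where 7 members and 2732 of all genes were called. The cause was not tested. In the *Carm1* line these offsets gave 13 called members and a median of 0.177. Over all genes 3026 were then called, of which 55.7% were higher, against 41.2% of calls without the offsets. The median exon length of the members tested was 2483 bases and that of all genes 4326. DESeq2 called 9 members in each line and 3 for the difference, and 1438, 3293 and 2817 of all genes in the 3 comparisons. In the *Carm1* line *Hoxb3*, *Hoxb4*, *Hoxc4*, *Hoxc6*, *Hoxd3* and *Hoxd4* were called under all 15 alternatives, and in the *Pax3* line *Hoxb4* and *Hoxb9*. Deviations of same-numbered mutant and wild-type libraries from their group means had correlations of -0.0411, 0.000822 and -0.042 in the *Carm1* line. In the *Pax3* line these were 0.133, -0.0916 and 0.227. Libraries of different numbers had correlations of -0.0101 to 0.0497 in the *Carm1* line and -0.325 to 0.236 in the *Pax3* line. With 3 pairs of numbers per line, these values cannot decide whether the numbers pair the embryos. With the replicate block, 10 members were called in the *Carm1* line (without *Hoxb9*), 10 in the *Pax3* line and 4 for the difference, and the medians were 0.155 and 0.0859. Of all genes 1787, 4177 and 3094 were then called. Low counts limit *Hoxb1*, *Hoxb13*, *Hoxc12* and *Hoxc13*, whose fold changes had standard errors of 0.173 to 0.385 where tested.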

Other observations

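Markers of other tissues that express Hox genes were measured in the same libraries. Of 15 limb bud genes, 2 rose and 1 fell in the *Carm1* line, *Shh* (log2 fold change 0.70, FDR adjusted P = 2.4e-05 in edgeR's quasi-likelihood test), *Fgf8* (0.99, FDR adjusted P = 0.011) and *Tfap2b* (-0.20, FDR adjusted P = 0.00775). In *Pax3 Sp2H/Sp2H* embryos 4 were higher and 2 lower, led by *Tfap2b* (-0.48), *Pitx1* (0.42) and *Msx1* (0.48). The limb bud genes summed to 587 to 614 CPM in *Carm1 KO/KO* embryos and 560 to 584 CPM in wild types, and to 651 to 660 CPM and 648 to 660 CPM in the *Pax3* line.

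Of 12 sclerotome and cartilage genes, 1 was higher and 3 lower in the *Carm1* line, led by *Acan* (-0.63), a matrix protein of cartilage, and 2 were higher in the *Pax3* line, *Foxc2* (0.39) and *Uncx* (0.33). Of 12 genes of the mesonephros and metanephros, *Eya1* (0.27) was higher and *Osr1* (-0.28) lower in *Carm1 KO/KO* embryos, while 3 rose and 2 fell in the *Pax3* line, led by *Foxd1* (0.60), *Six2* (0.32) and *Wnt11* (0.45). The genes of the mesonephros and metanephros summed to 299 to 315 CPM in *Carm1 KO/KO* embryos and 297 to 312 CPM in wild types, and to 359 to 370 CPM and 311 to 336 CPM in the *Pax3* line, where the groups did not overlap. The sclerotome and cartilage genes summed to 943 to 956 CPM against 890 to 1060 CPM in the *Carm1* line and to 981 to 1110 CPM against 836 to 1010 CPM in the *Pax3* line. Over all genes tested, 13.3% were called in the *Carm1* line and 24.5% in the *Pax3* line. The fold changes are on the log2 scale and passed the same test, and the part of these tissues in the Hox values was not tested.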
